A study of Mus musculus with 2 samples.

Results

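The genes described here were reported by earlier work as direct targets of the microRNAs miR-192 and miR-215, and were measured in RNA sequencing of mouse small intestinal epithelial cells. They are Dtl, Cdc7, Mad2l1, Lmnb2, Rb1, Mdm2, Bmi1, Cul5, Igf1r and Zeb2, and all 10 were among the 23284 genes listed. They were picked by name and not by their values here, though earlier results of these data were known. The study holds 1 library from wild-type mice (genotype miR-215+/+) and 1 from knockout mice (genotype miR-215-/-). The labels give the cells of both as small intestinal epithelia and name no treatment. The mice's strain, age and sex, how many were pooled and which part of the locus was deleted are not stated in the sources used here. With 1 library a genotype there is no replicate check, so "higher" and "lower" are said of the knockout cells against the wild-type cells, as these 2 libraries show them, and no p-value is given.

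A microRNA guides a silencing complex to messenger RNAs, mostly through pairing of its seed, bases 2 to 8, with a site in the 3′ untranslated region (3′ UTR), and lowers the stability or the translation of the bound messenger. miR-192 and miR-215 share their seed and are known as microRNAs of the gut epithelium that p53 can induce. Their reported targets act mainly in DNA replication and mitosis, in the RB and p53 pathways, in growth factor signalling and in the transition from epithelial to mesenchymal state. Most were reported in cultured cells, many of them human, and a library of messenger RNA shows levels of transcripts, not of protein.

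The mature sequences of miR-215 and miR-192 are shown because every site below is read against them. They are from the RefSeq annotation of GRCm38.p6, with the seed in capitals. Of 1679 mature mouse microRNAs in that table these were the 2 with this seed, and they have the same base at 18 of 21 positions.
mmu-miR-215-5p (chr1:185313610-185313630, plus strand): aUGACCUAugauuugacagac
mmu-miR-192-5p (chr19:6264857-6264877, plus strand): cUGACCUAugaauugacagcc

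The site that pairs with the whole seed reads TAGGTCA in the messenger. It was searched on the transcript strand of the longest complete 3′ UTR of each gene in GENCODE M21 (GRCm38, which mm10 names too), with its extension to 8 bases by a final A (TAGGTCAA), the form AGGTCAA and the 6-base core AGGTCA, which the longer forms contain. Of the 10 reported targets, 3 held the 7-base site: Rb1 and Zeb2 in its 8-base form and Mad2l1 in its 7-base form. Over 20909 genes with a 3′ UTR, 6.35% held the 7-base site and 1.32% the 8-base site. The targets had longer 3′ UTRs, with a median of 2013 nt against 956 nt. Among genes with a 3′ UTR of 0.8 to 1.2 times the length, the 7-base site was in 7.62% for Rb1, 25.9% for Mad2l1 and 22.8% for Zeb2. For the targets without the site this share ran from 5.09% (Cdc7) to 29.5% (Igf1r). The share of 6.35% over all genes is thus too low a background for most of the 10.

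The 3 sites are shown as windows of 30 bases, 5′ to 3′, with the site in capitals. They are the full seed matches found in the longest complete 3′ UTRs of the reported targets in this annotation.
Rb1 (chr14:73195724-73195753, minus strand): cacagattagttaggtttTAGGTCAAgggc
Zeb2 (chr2:44987596-44987625, minus strand): tttgcattcatttaatttTAGGTCAAataa
Mad2l1 (chr6:66545539-66545568, plus strand): cctctctgaaagtgagaaTAGGTCAtagga

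The Rb1 site started 1476 nt after the stop codon in a 3′ UTR of 1709 nt, and it was in the 1 complete transcript of the gene. The Zeb2 site started 966 nt after the stop codon. It was in 4 of 8 complete transcripts and in 1 of the 2 that are linked to RefSeq. The Mad2l1 site lay 5139 nt after the stop codon, in a transcript with a 3′ UTR of 6802 nt. The RefSeq-linked Mad2l1 transcript has a 3′ UTR of 1048 nt and ends before it. Which of these 3′ ends the cells used was not tested, because the deposited table gives 1 value per gene.

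Dtl, Cdc7 and Cul5 each held the 6-base core once in the 3′ UTR, and Igf1r held it 3 times. The core is common: it was in 27.6% of all 3′ UTRs, and in 40.6% of those of a length like that of Dtl, 23.6% for Cdc7, 58.3% for Cul5 and 84.5% for Igf1r. No form was found in the 3′ UTR of Lmnb2, Mdm2 or Bmi1, which says only that these letters are not there in this annotation. Cul5 had the 7-base site within its coding sequence, in all 3 complete transcripts. The 6-base core was also in the coding sequence of Dtl, Cdc7, Zeb2, Rb1 and Bmi1, and no share over coding sequences is given here. Dtl, Cdc7, Cul5 and Igf1r had no match longer than the core in the 3′ UTR. Windows are shown for the first 3, that of Cul5 in its coding sequence.
Dtl, 3′ UTR (chr1:191537738-191537767, minus strand): taccacaaatgggtgtcaaAGGTCAtgtgt
Cdc7, 3′ UTR (chr5:106983617-106983646, plus strand): atgcatgggttcgaggtacAGGTCAtaaag
Cul5, coding (chr9:53622913-53622942, minus strand): taacatttaaaaatgaagTAGGTCAgtatg

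**Figure D1:**
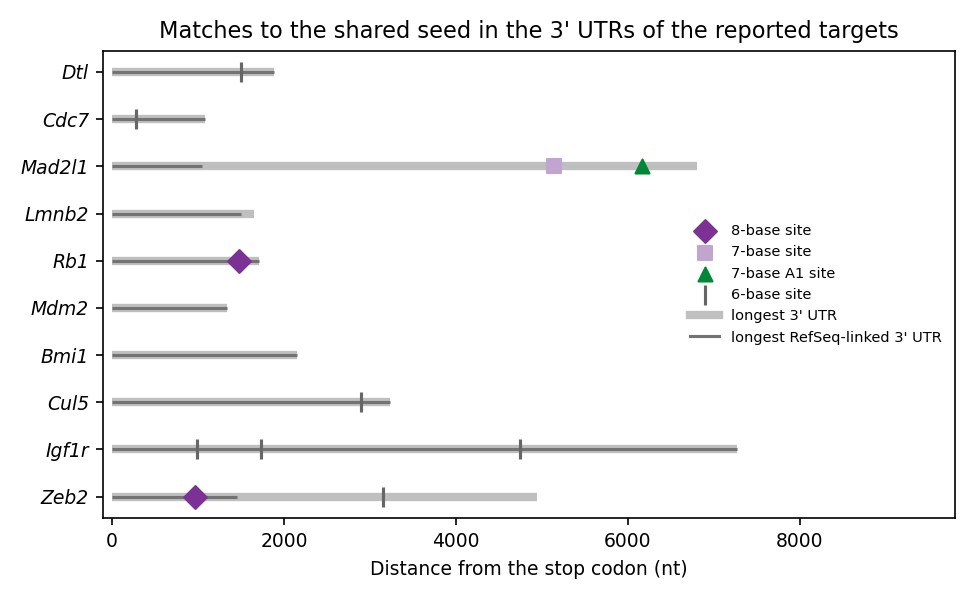
Positions of seed matches in the 3′ UTRs of the 10 reported targets, as distance from the stop codon in nt; pale bars are the longest complete 3′ UTR and dark lines the longest one linked to RefSeq. Rb1 and Zeb2 carry the 8-base form, and the 7-base site of Mad2l1 at 5139 nt lies beyond its RefSeq-linked 3′ UTR of 1048 nt.

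Levels are in FPKM, a fragment count divided by transcript length and by library depth. The spacing of the lowest values puts 1 FPKM over a 2-kb transcript at about 17.8 fragments for wild-type and 18.3 for knockout. Fragments of single genes were estimated with the median length of their RefSeq-linked transcripts, or of all annotated ones where none is linked, and folds carry an exact 95% Clopper-Pearson interval made from them. The intervals cover counting error only and not the spread between mice or preparations. The targeted gene gave no usable check of the labels: Mir215, 112 nt long, had 137 FPKM in wild-type and 0 in knockout cells, while the lowest wild-type value above 0 among 88 genes of like length was 122 FPKM. Mir192 had 0 in wild-type and 387 FPKM in knockout cells, where the lowest value above 0 at its length was 361 FPKM, and Mir194-1 and Mir194-2, genes of the same microRNA clusters, were listed at 0 in both libraries. These values thus rested on very few fragments of messenger RNA libraries, which do not measure the mature microRNAs.

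The reported targets covered a wide range of levels and differed little between the libraries. Their FPKM summed to 75.3 in wild-type and 83.4 in knockout cells. Over all 23284 genes the sums were 750631 and 683884 FPKM, and the summed levels of the marker lists below are to be read beside these too. Of the 10, 8 reached 1 FPKM in 1 or both libraries, and of these 7 were higher in the knockout library and 1, Bmi1, was lower. Among all 11504 genes that reached 1 FPKM in either library, 44.0% were higher and 56.0% lower. None of the 8 reached 1.5-fold in either direction on the log2(FPKM + 1) scale, which 4.83% of all genes did as higher and 7.26% as lower. That scale adds 1 to each value and understates the difference of low genes; without the added 1, Dtl was 1.78-fold higher. The counting interval of the fold lay above 1 for 2 of the 8, Dtl and Lmnb2, and below 1 for 0, while over 11342 genes that reached 1 FPKM and had an interval it lay above 1 for 19.5% and below 1 for 30.7%. When the knockout FPKM were scaled up to the wild-type sum, the interval lay above 1 also for Mad2l1, Mdm2 and Rb1, 5 of the 8, and for 31.3% of all genes, against 19.4% below 1. The 8 that reached 1 FPKM had a median log2 ratio of 0.21, against -0.05 over all genes.

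**Figure D2:**
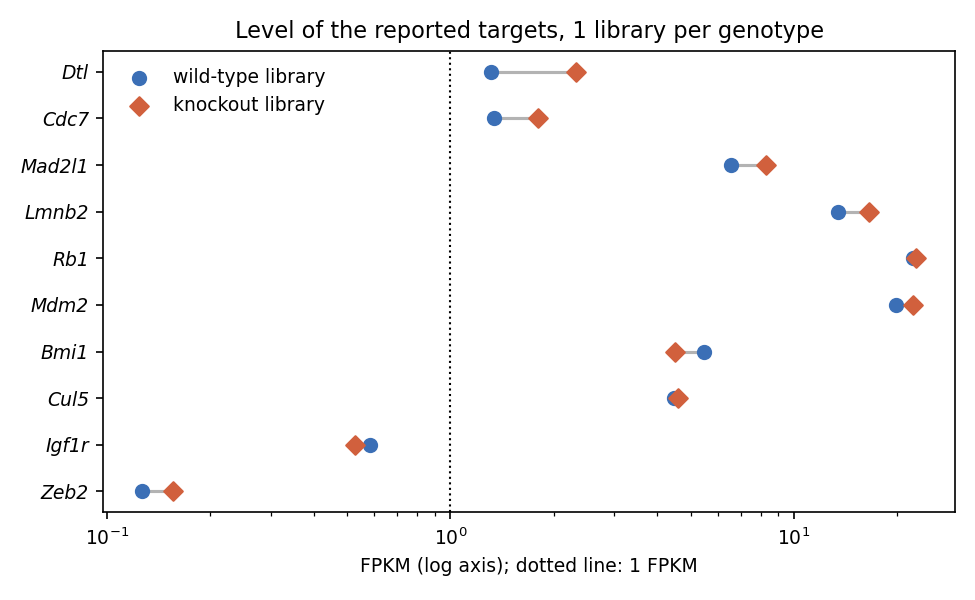
FPKM of each reported target (log axis) in the wild-type library (circles) and the knockout library (diamonds), 1 library each. Rb1 and Mdm2 are the most abundant at about 20 FPKM, and Igf1r and Zeb2 lie left of the dotted line at 1 FPKM in both libraries.

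Dtl, Cdc7, Mad2l1 and Lmnb2 act in DNA replication, mitosis or the nuclear envelope, and all 4 were higher in the knockout library. Dtl, the substrate receptor of the CRL4-Cdt2 ubiquitin ligase that clears the licensing factor Cdt1 in S phase (chromosome 1, 191537356 to 191575544, minus strand), was at 1.31 FPKM in wild-type and 2.32 in knockout cells. They came from about 49 and 90 fragments, and the fold was 1.78 with a counting interval of 1.24 to 2.57. It was the largest fold among the 10 genes. Dtl lies on the same chromosome as the targeted miR-215 (185313610 to 185313630), and the part of this shared location in its fold was not tested. Cdc7, the kinase that with Dbf4 fires licensed replication origins (chromosome 5, 106964322 to 106984432, plus strand), was at 1.34 and 1.79 FPKM. On about 35 and 48 fragments its fold of 1.34 had an interval of 0.841 to 2.12, so a difference was not detectable at this depth.

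Mad2l1, the spindle checkpoint protein that holds back anaphase until all chromosomes are attached (chromosome 6, 66535390 to 66547220, plus strand), was at 6.56 FPKM in wild-type and 8.27 in knockout cells. The fold was 1.26 with an interval of 0.970 to 1.66, from about 100 and 131 fragments over the RefSeq-linked transcript of 1725 nt. With the transcript of 7557 nt that carries the 7-base site the same values would rest on about 440 and 573 fragments, and the interval would be 1.11 to 1.43. Whether counting error alone covers the difference thus depended on the transcript length assumed. Lmnb2, the B-type lamin of the nuclear lamina (chromosome 10, 80901203 to 80918245, minus strand), was at 13.5 and 16.5 FPKM, a fold of 1.23 with an interval of 1.07 to 1.40. No seed match of any form was found in its 3′ UTR.

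Rb1 and Mdm2 were the most abundant of the 10 and lay close to equality. Rb1, the retinoblastoma protein that restrains E2F factors (chromosome 14, 73183673 to 73325822, minus strand), was at 22.3 FPKM in wild-type and 22.7 in knockout cells. With about 920 and 967 fragments the fold was 1.02 and its interval 0.929 to 1.12, the narrowest of the 10. This is the reported target with an 8-base site in its only complete transcript. Exons of Lpar6 and Rcbtb2 on the opposite strand overlap those of Rb1 by up to 209 and 383 nt, and the use of strand in counting is not stated in the sources used here; Lpar6 was at 3.31 and 4.50 FPKM and Rcbtb2 at 3.10 and 3.16. Mdm2, the ubiquitin ligase that degrades p53 and is itself a p53 target gene (chromosome 10, 117688875 to 117710758, minus strand), was at 19.8 and 22.1 FPKM. Its fold was 1.12 with an interval of 0.997 to 1.26, so 1 lay just inside.

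Bmi1 and Cul5 were at intermediate levels. Bmi1, a core subunit of Polycomb repressive complex 1 that silences the Cdkn2a locus (chromosome 2, 18677018 to 18686629, plus strand), was at 5.45 FPKM in wild-type and 4.49 in knockout cells. It was the 1 gene among the 8 that was lower, with a fold of 0.824 and an interval of 0.657 to 1.03 from about 174 and 148 fragments. Cul5, the scaffold of cullin-5 ubiquitin ligases that work with SOCS-box proteins (chromosome 9, 53614582 to 53670014, minus strand), was at 4.46 and 4.59 FPKM. Its fold was 1.03 with an interval of 0.836 to 1.26.

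Igf1r and Zeb2 stayed under 1 FPKM in both libraries and were left out of the counts over genes. Igf1r, the receptor of insulin-like growth factors (chromosome 7, 67952827 to 68233668, plus strand), was at 0.584 FPKM in wild-type and 0.529 in knockout cells. Its long transcript still gave about 59 and 55 fragments, and the fold was 0.906 with an interval of 0.614 to 1.33. Zeb2, a transcriptional repressor of E-cadherin that drives the mesenchymal state and is also expressed in fibroblasts and macrophages (chromosome 2, 44983632 to 45117395, minus strand), was at 0.127 and 0.155 FPKM. These rested on about 5 and 7 fragments, and the interval of the fold, 0.370 to 5.42, allowed a difference of several fold in either direction. Zeb2 is thus a reported target with an 8-base site whose level could not be compared at this depth.

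Set by size of the fold, the order was Dtl, Cdc7, Mad2l1, Zeb2, Lmnb2, Mdm2, Cul5, Rb1, Igf1r and Bmi1. Neighbours in this order had overlapping counting intervals throughout. The 3 genes with the 7-base site in the 3′ UTR had folds of 1.26 (Mad2l1), 1.23 (Zeb2) and 1.02 (Rb1). The 7 without it ranged from 0.824 (Bmi1) to 1.78 (Dtl), and so enclosed all 3. Among genes that reached 1 FPKM and had a complete 3′ UTR, the 748 with the 7-base site had a median log2 ratio of -0.01. The 142 with the 8-base site, which are among these 748, had 0.02, and the 10237 without the 7-base site -0.05. Higher in the knockout library were 51.4% with the 8-base site, 48.9% with the 7-base site and 43.2% without it. These groups were not matched for 3′ UTR length or for level.

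**Figure D3:**
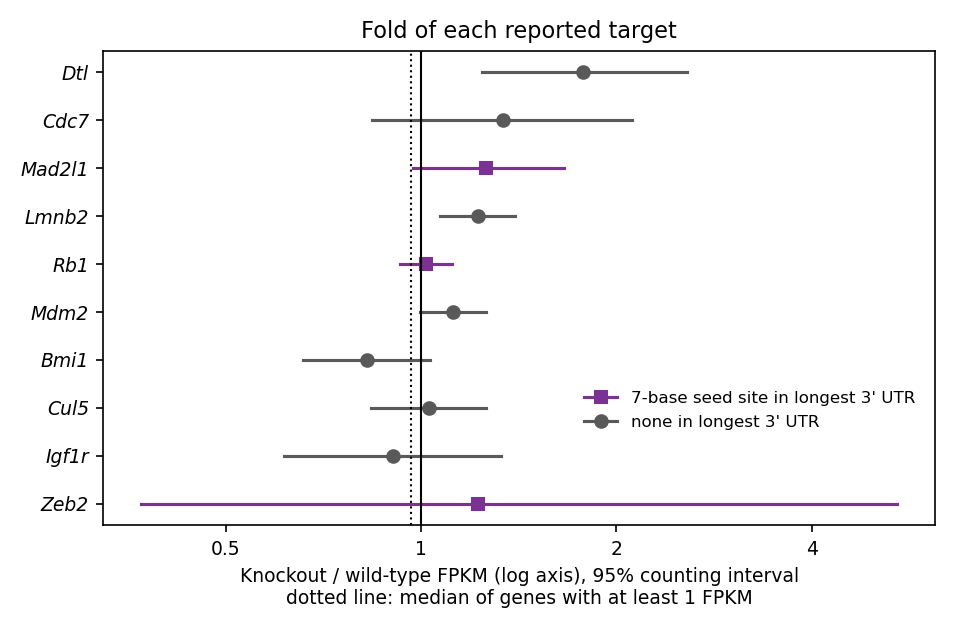
Ratio of knockout to wild-type FPKM for each reported target (log axis) with its 95% counting interval; squares mark genes with the 7-base seed site in the 3′ UTR and the dotted line the median fold of all genes with at least 1 FPKM, 0.963. The intervals of Dtl and Lmnb2 lie above 1, and those of the other 8 genes include it.

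The level of a gene moved with its ratio in these libraries, and most reported targets were low. Among all genes, the median log2 ratio was 0.07 in the band of 1 to 2 FPKM, 0.05 at 2 to 4, 0.02 at 4 to 8, -0.02 at 8 to 16 and -0.08 at 16 to 32. Dtl, at a log2 ratio of 0.53, and Cdc7, at 0.26, lay above the median of the first of these bands and below its 95th percentile of 0.71. Mad2l1 (log2 ratio 0.29) and Bmi1 (-0.23) lay on either side of the median at 4 to 8 FPKM, where the 5th and 95th percentiles were -0.63 and 0.57. Lmnb2 (0.27) was below the 95th percentile of 0.51 at 8 to 16 FPKM. Rb1 (0.02) and Mdm2 (0.16) were above the median of their band and below its 95th percentile of 0.45. Every one of the 8 was thus within the central 90% of genes of like level.

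**Figure D4:**
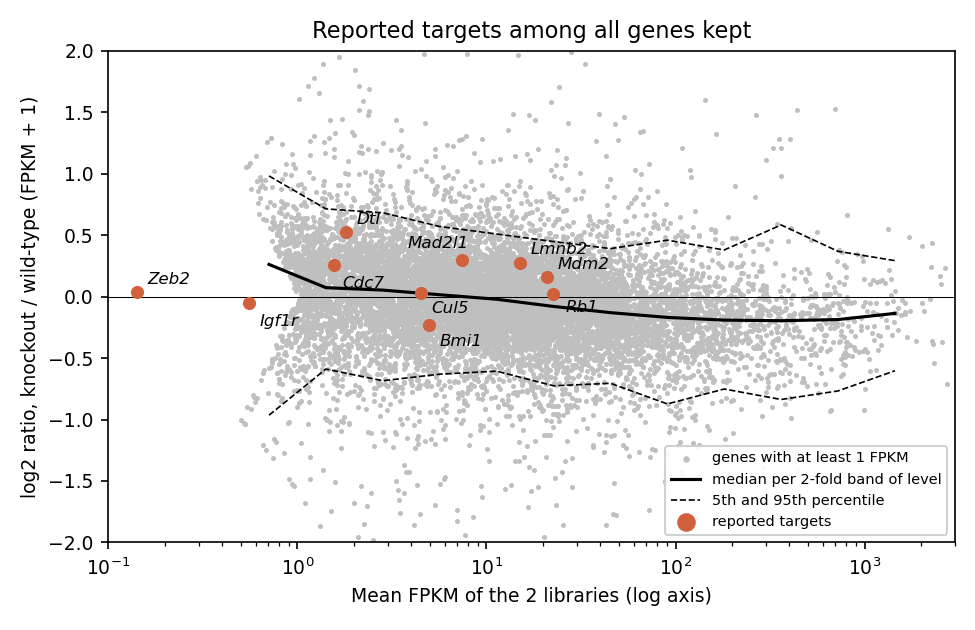
Log2 ratio of knockout to wild-type on the log2(FPKM + 1) scale against the mean FPKM of both libraries (log axis), for all genes with at least 1 FPKM (grey; 97 lie outside the axes) and the reported targets (orange). The solid line is the median and the dashed lines the 5th and 95th percentile per 2-fold band of level; the 8 targets at or above 1 FPKM lie between the dashed lines.

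Further genes reported as targets of either microRNA, 6 in all, were read in the same way. Tyms, thymidylate synthase, was at 4.03 FPKM in wild-type and 5.06 in knockout cells, a fold of 1.26 with an interval that includes 1. Xiap, an inhibitor of caspases, was at 24.6 and 24.1 FPKM, and Kdm1b, a histone demethylase, at 4.55 and 5.25. Ctnnbip1, an inhibitor of beta-catenin and the 1 of these genes with the 7-base site in its longest 3′ UTR, was at 15.8 and 17.4 FPKM. Zeb1, the paralog of Zeb2, was under 1 FPKM in both libraries, at 0.275 and 0.512. Cxcl12, the chemokine that the series title links to miR-215, was at 0.214 and 0.779 FPKM, also under 1 in both. On about 6 and 22 fragments its fold was 3.65 with an interval of 1.40 to 10.7, the 1 interval of the 6 genes that excludes 1. Cxcl12 is also made by fibroblasts. The fibroblast and smooth muscle markers, given at the end as 1 list, summed to 20.3 FPKM in wild-type and 59.6 in knockout cells. The part of such cells in the fold of Cxcl12 was not tested. No form of the site was found in its longest 3′ UTR of 5188 nt.

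The pathways of the reported targets are given next, as counts of genes with at least 1 FPKM. Over all such genes 44.0% were higher and 56.0% lower, and the marker counts further below are to be read beside the same shares. Of 19 genes of origin licensing and firing, the process of Cdc7 and Dtl, 16 were higher and 3 lower, with a median log2 ratio of 0.26. The helicase subunit genes Mcm3 (5.36 and 11.2 FPKM), Mcm4 (4.34 and 7.71) and Mcm5 (6.64 and 10.3) differed most, and the sliding clamp gene Pcna was at 80.5 and 85.3 FPKM. Of 8 genes of the CRL4-Cdt2 ligase and its substrates, the partners of Dtl, 4 were higher and 4 lower (median -0.01). Its adaptor Ddb1 was at 94.5 and 108.7 FPKM, its scaffold Cul4b at 7.05 and 5.90, and the substrate gene Cdkn1a, the most abundant, at 169 and 188. Dtl thus had a larger log2 ratio, 0.53, than Ddb1, at 0.20. Of 8 other spindle checkpoint genes, 7 were higher (median 0.19). The kinase genes Bub1 (1.57 and 2.97 FPKM), Ttk (1.45 and 2.05) and Bub1b (4.33 and 5.25) differed most, and Mad2l1bp, which encodes a binding partner of the Mad2l1 protein, was at 26.7 and 26.2 FPKM. Of 9 other nuclear lamina genes 7 were higher (median 0.24), among them Lmna (45.5 and 64.8 FPKM), the lamin B receptor gene Lbr (10.2 and 12.8), Lmnb1 (11.6 and 14.4) and Banf1, the most abundant (144 and 148). The lamina genes Lmnb1 and Lmnb2 had close log2 ratios of 0.29 and 0.27.

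Of 20 genes around Rb1, the RB and E2F list, 12 were higher and 8 lower (median 0.13). Their counting interval lay above 1 for 6 and below 1 for 7, against 19.5% and 30.7% of all genes. Ccnd1, the cyclin D1 that starts phosphorylation of the RB protein, was at 8.78 FPKM in wild-type and 17.4 in knockout cells. The kinase inhibitor gene Cdkn1b was at 30.4 and 20.1 FPKM and the cyclin gene Ccne2 at 3.33 and 1.97. The most abundant of the list, the cyclin D kinase gene Cdk4, was at 48.1 and 53.04 FPKM. Of 14 genes of p53 and its targets, the pathway of Mdm2, 8 were higher and 6 lower (median 0.10). Pmaip1, which encodes the pro-apoptotic protein Noxa, was at 36.4 and 93.5 FPKM, the Mdm2 paralog Mdm4 at 7.53 and 11.5, and the death receptor gene Fas at 37.3 and 22.0.

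Of 16 genes of Polycomb repressive complex 1 around Bmi1, 10 were lower and 6 higher (median -0.17). The chromobox subunit gene Cbx7 was at 7.98 and 3.75 FPKM, Pcgf1, a paralog of Bmi1, at 8.32 and 6.53, and Rybp was 1.23-fold higher, while the most abundant gene, the polyhomeotic subunit gene Phc2, was at 34.7 and 31.9. Of 11 genes of the cullin-5 ligase and other cullins, 8 were lower and 3 higher (median -0.15), while Cul5 itself had a log2 ratio of 0.03. Cul7 was at 1.62 and 1.08 FPKM, Cul2 at 8.49 and 10.2, and Elob, the elongin B adaptor gene listed as Tceb2, at 417.6 and 376.5. Of 8 genes of insulin and IGF signalling around Igf1r, 4 were higher and 4 lower (median 0.00). The binding protein genes Igfbp7 (2.14 and 7.37 FPKM), Igfbp3 (0.551 and 2.56) and Igfbp6 (1.42 and 3.02) differed most, and the most abundant member, the scavenging receptor gene Igf2r, was at 23.9 and 17.8. Of the genes of the transition from epithelial to mesenchymal state only 3 of 8 reached 1 FPKM, with Vim at 6.56 and 11.0 FPKM, Fn1 at 0.772 and 1.65 and the E-cadherin gene Cdh1 at 267 and 260.1. Vim is also counted among the fibroblast and smooth muscle markers below, and the part of such cells in these levels was not tested.

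**Figure D5:**
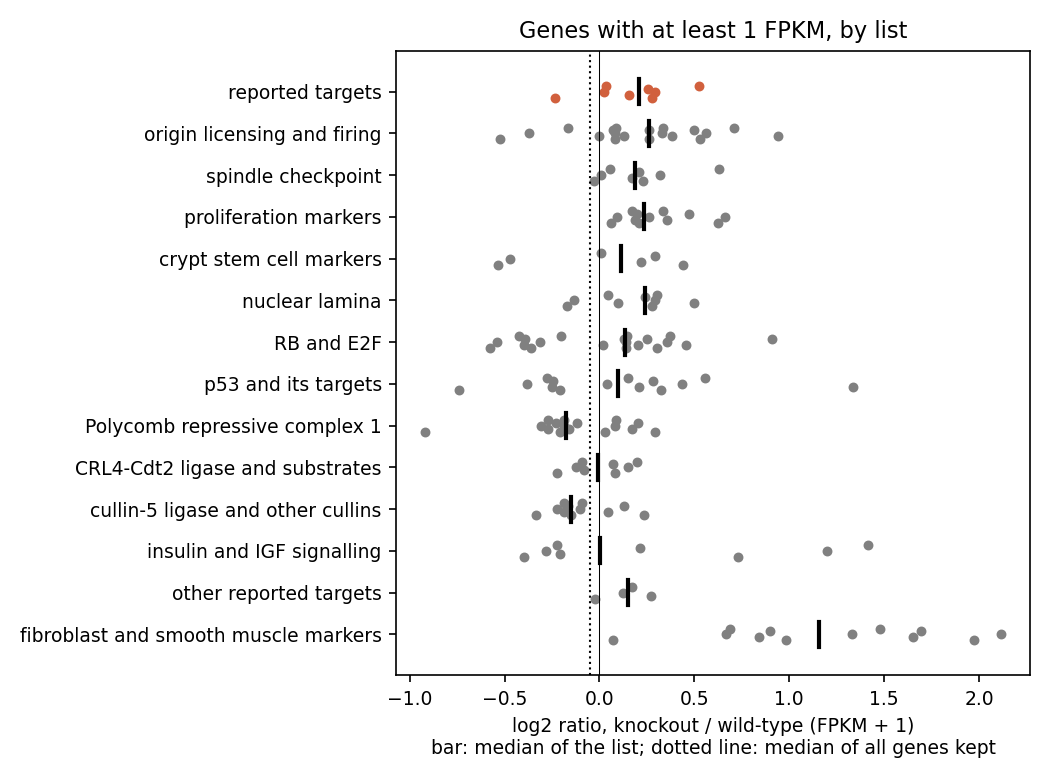
Log2 ratios on the log2(FPKM + 1) scale of the genes with at least 1 FPKM in each list, with the list median as a bar and the median of all genes, -0.05, as a dotted line. The reported targets (orange) have a median of 0.21. All lie within the range of the origin licensing and firing list and of the RB and E2F list. Bmi1, at -0.23, lies below every value of the spindle checkpoint, proliferation and nuclear lamina lists. Rb1 and Cul5 lie below every proliferation marker, and Dtl, at 0.53, lies above every nuclear lamina value. The fibroblast and smooth muscle markers lie farthest to the right.

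Markers of dividing cells and of other cell types also moved between the libraries. In bulk RNA, fewer cells of a type and less RNA per cell cannot be told apart. All 12 proliferation markers were higher in the knockout library (median log2 ratio 0.24), with a summed level of 122 FPKM in wild-type and 154 in knockout cells, and none was at 0. Mki67 was at 5.60 and 9.45 FPKM, Top2a at 10.8 and 17.3, Plk1 at 8.38 and 12.0 and Ube2c at 26.0 and 33.5. Dtl, Cdc7, Mad2l1 and Lmnb2 are higher in the same library, and the part of these markers in their ratios was not tested. Of 6 crypt stem cell markers 4 were higher and 2 lower (summed level 179 and 229.5 FPKM), with Olfm4 at 149 and 202.5, Lgr5 at 1.91 and 1.01 and Axin2 at 14.8 and 10.4.

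All 12 measured of 14 fibroblast and smooth muscle markers were higher, with a summed level of 20.3 FPKM in wild-type and 59.6 in knockout cells and no marker at 0. Des was at 0.581 and 5.85 FPKM, Acta2 6.16-fold higher, at 8.04 in knockout cells, and Col6a1 at 0.599 and 4.17. Of 11 measured of 12 macrophage and dendritic cell markers 8 were higher (summed level 99.9 and 112 FPKM, none at 0), among them C1qa (4.93 and 12.3), C1qc (6.30 and 12.7) and Itgax (1.48 and 2.82), while Tyrobp was at 30.1 and 22.1. The endothelial markers summed to 1.82 and 6.62 FPKM, with Kdr listed at 0 in 1 library, Plvap at 0.454 and 3.77 and Pecam1 1.85-fold higher. The T cell and intraepithelial lymphocyte markers summed to 402 and 428 FPKM, with none of the 11 listed at 0, and 8 of the 11 were higher; Gzma was at 250.5 and 261, Itgae at 7.61 and 11.1, Cd8b1 at 1.70 and 3.11 and Cd3d at 7.68 and 4.93. Zeb2 and Igf1r are expressed in several of these cell types, and the part of such cells in their low levels was not tested. All 9 markers of the labelled cell type, epithelium, were present, with a summed level of 27398 and 25388 FPKM, among them Fabp2 at 18795 and 15926, Krt20 at 1721 and 2287 and the intestinal factor gene Cdx2 at 124 and 64.8.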

How the data were processed

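The deposited tables hold 1 value per gene for each of 2 libraries of small intestinal epithelial cells, made per the labels' protocols with an RNeasy extraction and a stranded, poly(A)-selecting TruSeq kit. The values are FPKM made by the authors; no header names the unit, which was inferred from the tools, the table layout and the values. Cuffnorm 2.2.1, SAMtools 0.1.19, Bowtie2 2.2.3, TopHat2 2.0.13 and the build mm10 are named by the submitters' processing notes; settings, annotation and use of strand are not stated. With no counts and 1 library per genotype, no test was run.

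Ratios are log2(knockout + 1) minus log2(wild-type + 1) over genes that reached 1 FPKM in either library; folds omit the added 1. A single fragment on a 1-kb transcript equals 0.113 FPKM (wild-type) or 0.109 (knockout), the median over 118 and 116 genes with 1 coding transcript of over 1500 nt, under 0.3 FPKM, near the lowest step. Lengths are the median of the gene's RefSeq-linked transcripts, or of all where none is linked, and genes under 200 nt got no interval. Coordinates, counted from 1, and transcripts are from GENCODE M21 (GRCm38); 22812 symbols matched. Calculations used Python 3.11.15, pandas 2.3.3 and scipy 1.17.1 and were tested on simulated data.

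Members and lists were chosen with earlier results of these data known. All members, the other reported targets, and from each list the 3 largest log2 ratios in size and the most abundant gene are named. One further gene of the list of other reported targets is left out of its counts and is not reported here. Likeness between gene patterns was not computed, since 2 libraries give none.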

Additional observations from a re-analysis of the deposited data

How the results depend on the processing

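Pseudocounts of 0.1 and 5, 3 scalings of the knockout values, other filters, transcript lengths and site definitions were tried. None of the 50 values of single targets under 5 settings changed sign, but most of these signs were fixed beforehand. A pseudocount cannot turn the sign of a ratio, and each scaling raised the knockout values, so targets already higher stayed higher. Only Bmi1 and Igf1r under the 3 scalings could have changed sign, and both stayed lower. With a minimum of 5 FPKM, 4 of 5 measured targets were higher, and with no filter 2 of 10 were lower. The median log2 ratio over all genes was -0.08 and 0.0 under these 2 filters. The shares of all genes higher or lower under them are not given here. The count at least 1.5-fold higher was 0 as reported, and 1 (Dtl) with a pseudocount of 0.1, with the knockout scaled to the wild-type sum and with equal upper quartiles. These scalings raised the all-gene median from -0.05 to 0.07 (log2), for the sum as for the upper quartile. Counting intervals above 1 went from 2 targets to 5 under either of these scalings (Dtl, Lmnb2, Mad2l1, Mdm2 and Rb1). They went to 4 with the median set to 0. No interval lay below 1 under any scaling, which was fixed beforehand, since none did before and each scaling raised the knockout values. Over all genes that reached 1 FPKM and had an interval, the share above 1 rose too, from 19.5% to 31.3% with the sum. The shares of all genes under the other scalings are not given here. The 6-base core was in 7 targets in place of 3, and the 7-base site in 1, Rb1, with the shortest complete 3′ UTRs. No paired analysis was possible because each genotype has 1 library. Depth limits Zeb2 most, at about 5 and 7 fragments.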
